A study of Mus musculus with 20 samples.

Results

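The peptide hormones of pancreatic islets and of related gut endocrine cells were followed in thymic epithelium: insulin 2 (Ins2), amylin or islet amyloid polypeptide (Iapp), pancreatic polypeptide (Ppy), peptide YY (Pyy), proglucagon (Gcg), somatostatin (Sst) and ghrelin (Ghrl). All probe sets annotated to exactly 1 of these 7 symbols were taken, which gave 7 of 18193 named genes and 10 of the 45037 probe sets tested, 4 for Iapp and 1 for each other gene. No cut on their level was used to choose them, but they were chosen with earlier results of these data known. The cells were medullary thymic epithelial cells that are high for MHC class II, sorted by flow cytometry from male mice aged 3 to 4.5 weeks, and each of 20 Affymetrix arrays holds 1 thymus. The 6 groups pair the labels aireWT and aireKO, for wild-type (WT) and knockout (KO) mice, with 3 strains: B6 gave 3 mice of each genotype, BALB 4 and NOD 3. The labels name no other allele or treatment, nor how the knockout was made. The series asks what Aire does in individual mice of different backgrounds.

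Aire is a transcriptional regulator of mature medullary epithelium. It drives the expression there of many genes that are otherwise kept to single organs, so that developing T cells meet those proteins in the thymus. Insulin and amylin are made together by islet beta cells, glucagon by alpha cells, somatostatin by delta cells and pancreatic polypeptide by PP cells, while peptide YY and ghrelin are known chiefly from the gut and stomach. Insulin is a main target of the T cells that destroy beta cells in the NOD mouse, a strain that develops autoimmune diabetes. In a sorted population, fewer hormone-expressing cells and less hormone RNA per cell cannot be told apart.

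The start regions of these genes, which lie on several chromosomes, are shown as a description. A part of these regions in the KO effects was not tested, nor whether the strains share the sequences. Each line is the 100 bases before the annotated start, 5′ to 3′ on the gene's strand, from RefSeq (GRCm38.p6). Capitals mark TATAA, the core of a TATA box, or TGACGTCA, the palindrome known as the cAMP response element. Of the 7 members 6 had an entry, and Ins2 is named only.
Iapp, chr6:142298325-142298424, plus strand: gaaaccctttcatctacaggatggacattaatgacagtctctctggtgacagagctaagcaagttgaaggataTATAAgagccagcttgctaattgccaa
Ppy, chr11:102101320-102101419, minus strand: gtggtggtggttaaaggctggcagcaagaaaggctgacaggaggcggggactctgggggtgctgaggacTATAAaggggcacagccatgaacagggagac
Pyy, chr11:102107833-102107932, minus strand: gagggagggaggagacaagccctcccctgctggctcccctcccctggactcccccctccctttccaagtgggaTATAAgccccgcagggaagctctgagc
Gcg, chr2:62483654-62483753, minus strand: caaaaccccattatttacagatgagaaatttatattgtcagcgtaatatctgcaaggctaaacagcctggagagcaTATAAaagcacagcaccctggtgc
Sst, chr16:23890845-23890944, minus strand: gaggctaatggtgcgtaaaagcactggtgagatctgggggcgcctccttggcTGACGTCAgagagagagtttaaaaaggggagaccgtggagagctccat
Ghrl, chr6:113719912-113720011, minus strand: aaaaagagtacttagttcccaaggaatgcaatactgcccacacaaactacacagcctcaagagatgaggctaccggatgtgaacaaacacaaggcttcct
The motif TATAA began 27 bases before the start of Iapp, 31 before Ppy, 27 before Pyy and 24 before Gcg. These letters stood on the gene's strand in the 40 bases before 4.23% of 32851 promoters. Sst held TGACGTCA, beginning 48 bases before the start, as did 1.15% of all promoters in these 100 bases on either strand. Pyy has a further annotated start, with the same TATAA 83 bases before it, and none of the 4 annotated starts of Ghrl held either motif in its 100 bases. A match of letters is a description and not a binding site.

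Array medians lay between 86.3 and 90.9 intensity units. Medullary epithelial markers were present in every mouse, and the lowest value of any of the 10 measured was 196 units. The Aire probe set read higher in mice labelled KO, at 10.5 to 12.0 on the log2 scale against 9.31 to 11.4 in WT mice (log2 difference 0.74 ± 0.14, SE; limma, Benjamini-Hochberg adjusted p = 0.00104). No source used here places that probe set inside or outside the deletion, so it does not test the genotypes, and KO means labelled KO throughout. Among the B6 arrays 3 stood apart (WT mouse 2, KO mouse 2 and KO mouse 3) by a low ratio of the 3' to the 5' Gapdh control, a sign of RNA integrity and amplification. B6 arrays ran from 1.68 to 3.76 in that log2 ratio, against 2.24 to 3.04 in BALB and 2.15 to 2.49 in NOD. B6 WT mouse 1 was the highest of all 20 at 3.76. KO effects in B6 are given with and without the 3 low arrays. Leaving these out sets KO mouse 1 alone against WT mice 1 and 3, and the spread of that single mouse is then taken from the other groups. Summed markers of dendritic cells and macrophages ranged from 4516 to 19528 units, both extremes outside B6 (NOD WT 5756 to 19528, NOD KO 6115 to 13759), and none of the 11 was at 0. Their part in the results was not tested beyond a fit with these markers as a covariate, which is among the alternatives in the closing section. Single markers of other cells moved both ways in the averaged contrast. Over all genes, each taken by its brightest probe set, 16.6% were lower and 9.70% higher there, and many of the counts below lie near these shares. In the dendritic cell and macrophage list 1 of 11 was lower (Adgre1, -1.38) and 2 higher, of 10 thymocyte markers 2 were lower (Cd3g, -0.92) and 0 higher, and of 6 B cell markers 0 were lower and 2 higher (Cr2, 1.44). Of 8 fibroblast markers 4 were lower (Col3a1, -1.12) and 3 higher (Dcn, 1.53). Their summed level was 1834 to 1924 units in B6 WT and 2520 to 3662 in KO mice. It was 1716 to 1940 and 3290 to 3777 in BALB, and 1687 to 2077 and 1801 to 2100 in NOD. Dcn, the brightest of them (mean log2 9.24 in WT, 10.8 in KO mice), weighs most in that sum. The mean log2 level of the list overlapped between the genotypes in B6 (7.36 to 7.52 in WT, 7.32 to 7.60 in KO mice) and BALB (7.31 to 7.54, 7.24 to 7.42). In NOD it was lower in KO mice, at 7.21 to 7.36 against 7.38 to 7.53. Of 6 endothelial markers 1 was lower (Cd34, -2.11) and 1 higher, of 7 cortical epithelial markers 1 (Ctsl, -0.78) and 1, of 4 tuft cell markers 1 (Dclk1, -0.60) and 0, and of the 10 medullary markers 1 (Krt5, -0.69) and 3 (Cd80, 0.85). No marker was at 0, and the part of these cells in the results was not tested.

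Hormone signals were lower in the KO mice of every strain, with Gcg in NOD and Ghrl in B6 and NOD apart from the rest. Averaged over the strains, 9 of the 10 probe sets, covering 6 of 7 genes, fell (limma, adjusted p under 0.05), and 0 rose. Over all probe sets 20.6% passed in this contrast, 10.1% as lower and 10.5% as higher. The median log2 difference of the 10 was -1.98, against 0.06 for all probe sets. By strain, 9 of 10 fell in B6 (background 8.62% called, 5.54% lower), 10 of 10 in BALB (6.84% and 4.26%) and 8 of 10 in NOD (4.23% and 2.81%). The medians of the 10 were -2.08, -2.06 and -1.75. For 8 of the 10 all KO mice read below all WT mice of their strain in all 3 strains, a pattern that 3.17% of all probe sets showed (11%, 5.6% and 10% within B6, BALB and NOD alone). Without the 3 low B6 arrays, 6 of 10 passed in B6, where Gcg, Sst and Iapp on 1456004_x_at were lost (1 KO against 2 WT mice), and 9 of 10 in the average. The averaged contrast and the 3 strain contrasts are made from the same mice, so they do not support each other.

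**Figure D1:**
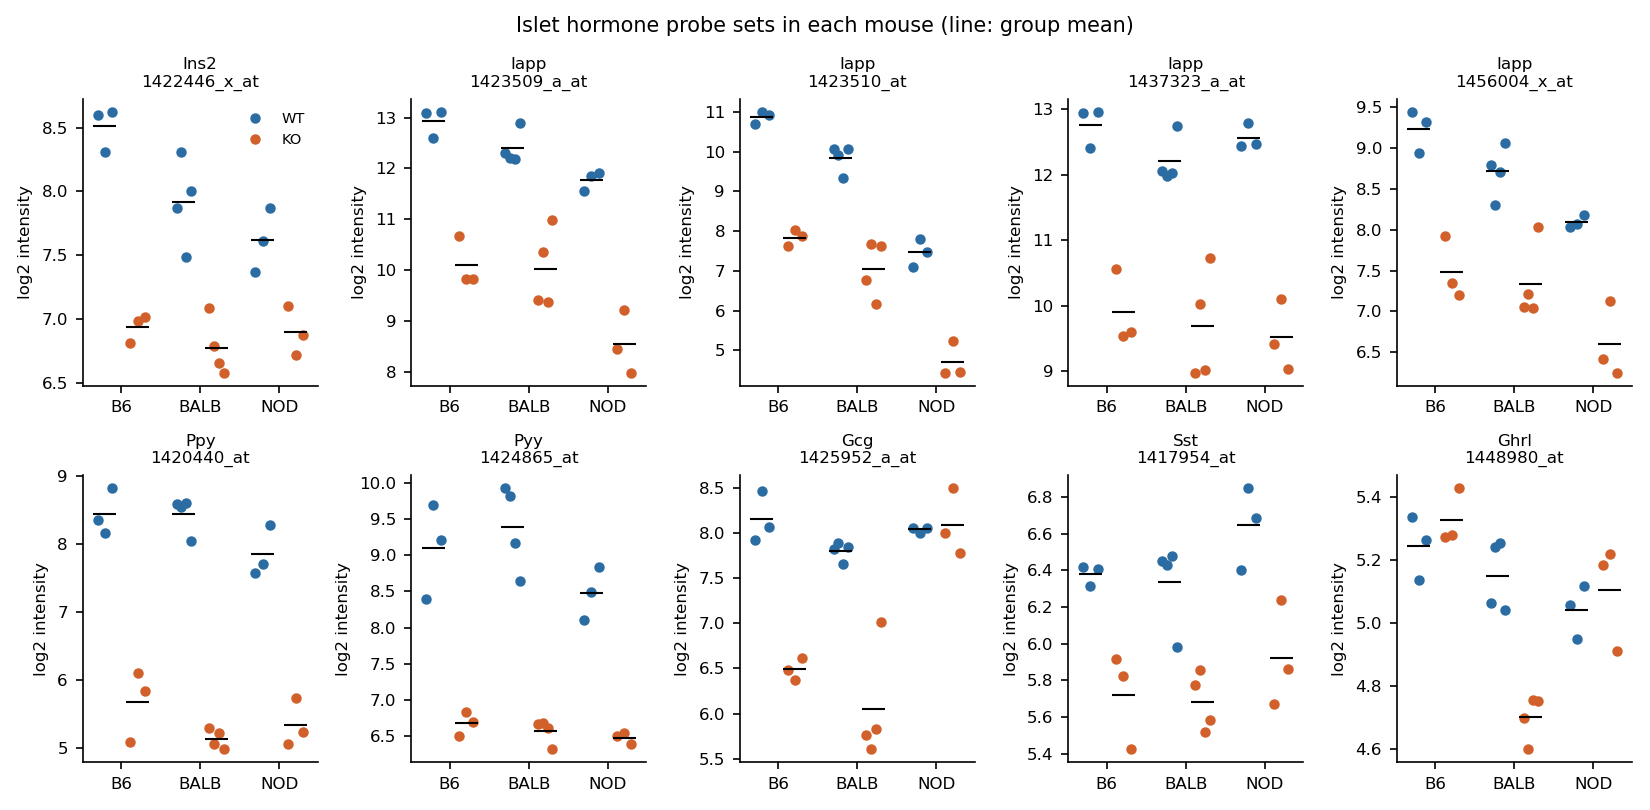
The log2 intensity of each of the 10 hormone probe sets is plotted for every mouse, by strain, with WT mice in blue, KO mice in orange and a line at each group mean (n = 3 or 4 mice; each panel has its own axis). WT and KO points are separate in every strain except for Gcg in NOD, where WT mice read 256 to 267 units and KO mice 221 to 361, and for Ghrl in B6 and NOD.

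Insulin 2, the insulin gene that thymic epithelium is known to express in mice, was lower in KO mice of all strains. The WT mice read 387, 317 and 394 intensity units in B6, 234, 317, 179 and 257 in BALB, while those of NOD read 165, 195 and 234. The KO mice read 112, 127 and 129 in B6, 136, 110, 101 and 95.4 in BALB, while those of NOD read 137, 105 and 117. Every KO mouse lay below every WT mouse of its strain, and the narrowest gap was in NOD. The averaged log2 difference was -1.15 ± 0.10 (SE), a 2.21-fold fall (limma, adjusted p = 1.82e-07). It was -1.57 ± 0.18 in B6 (adjusted p = 1.67e-05), -1.14 ± 0.16 in BALB (adjusted p = 0.000127) and -0.72 ± 0.18 in NOD (adjusted p = 0.0304). The B6 effect was -1.80 without the 3 low arrays (adjusted p = 0.00218). The NOD call is the least secure of these: it was lost without any 1 of NOD WT mice 2 and 3 and KO mice 2 and 3 (adjusted p from 0.0872 to 0.179), and with only the NOD arrays fitted (adjusted p = 0.0517). The 3 strain effects were not shown to differ (F test of the strain differences, limma, adjusted p = 0.592).

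The order of the strains in Ins2 came from the WT mice. Their mean log2 intensity was 8.51 ± 0.18 (SD, n = 3) in B6, 7.92 ± 0.34 (n = 4) in BALB and 7.62 ± 0.25 (n = 3) in NOD, and the strains differed (F test among WT mice, limma, adjusted p = 0.00893, where 11.3% of all probe sets passed). NOD WT mice were lower than B6 WT mice by -0.89 ± 0.18 on the log2 scale (adjusted p = 0.00539; 7.04% of probe sets passed), and all 3 read below all 3. This difference was -0.99 without the 3 low B6 arrays (adjusted p = 0.0129). The neighbours in the order were not separated, B6 from BALB (adjusted p = 0.0513) or BALB from NOD (adjusted p = 0.389). KO means were 6.94, 6.77 and 6.89 in the same order and did not pass (adjusted p = 0.749). With the run of sample codes as a block the WT strain difference of Ins2 did not pass (adjusted p = 0.535); runs are groups of close sample codes in the labels, whose meaning is not given. Runs 1, 3 and 4 each held a single strain (BALB, B6 and NOD), and the only B6 mouse in run 2 was a KO mouse. B6 WT mice with a code thus shared no run with BALB or NOD mice. From the WT mice alone, differences from B6 cannot be told apart from the run, for Ins2 and for the other hormones. The probe set's name ends in _x_at, which marks probes that can also match other sequences. Ins1, a close copy of Ins2, was not analysed here, so its share in this signal is unknown.

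Amylin, secreted from the same granules as insulin, showed a larger fall. On probe set 1437323_a_at, the one of its 4 with the highest mean over all arrays, WT mice read 7871, 5418 and 7975 units in B6, 4270, 4043, 4194 and 6858 in BALB, while those of NOD read 5549, 7081 and 5705. KO mice read 1506, 745 and 772 in B6, 503, 1040, 520 and 1705 in BALB, while those of NOD read 683, 1096 and 522. No group of KO mice came near its WT group: the highest KO mouse of all read 1705 and the lowest WT mouse 4043. The averaged log2 difference was -2.81 ± 0.22 (SE), 7.03-fold (limma, adjusted p = 3.35e-08).

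The other probe sets of Iapp gave the same direction. Probe set 1423509_a_at read 8689, 6186 and 8842 in B6 WT mice and 1626, 908 and 908 in KO mice. In BALB it read 5078, 4731, 4671 and 7609 in WT and 679, 1316, 663 and 2020 in KO mice. In NOD it read 3025, 3716 and 3871 in WT and 348, 594 and 253 in KO mice. Its averaged fall was 7.01-fold, that of 1423510_at 7.28-fold and that of 1456004_x_at 2.9-fold (limma, adjusted p = 1.72e-08, 2.16e-09 and 5.52e-07). On each of the 4 every KO mouse read lower than every WT mouse of the same strain. The strain effects on the log2 scale ran from -3.23 to -2.37 on 1423509_a_at, from -3.04 to -2.76 on 1423510_at, from -3.05 to -2.52 on 1437323_a_at and from -1.74 to -1.37 on 1456004_x_at, and none was shown to differ between strains (adjusted p = 1 for each). Without the 3 low B6 arrays the B6 effects were -2.43, -3.20, -2.40 and -1.46 in that order of probe sets (adjusted p = 0.028, 0.00263, 0.0362 and 0.0636), so that the last was lost.

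The probe sets of Iapp disagreed on the strains, and the disagreement was in NOD. On 1423510_at WT mice read 1661, 2049 and 1953 in B6, 1066, 973, 651 and 1070 in BALB, but 137, 225 and 178 in NOD. KO mice read 196, 260 and 234 in B6, 109, 203, 71.6 and 198 in BALB, while those of NOD read 21.6, 37.4 and 22. NOD mice of both genotypes therefore sat below all mice of the same genotype in the other strains on this probe set. NOD WT mice were lower than B6 WT mice by -3.41 ± 0.33 on the log2 scale, 10.6-fold (limma, adjusted p = 2.5e-06), and NOD KO mice lower than B6 KO mice by -3.13 ± 0.33 (adjusted p = 5.07e-06; 10% of probe sets passed). On 1437323_a_at the same WT comparison was -0.20 ± 0.40 (95% interval -1.04 to 0.64; adjusted p = 0.841). The remaining probe sets lay between, at -1.15 ± 0.38 on 1423509_a_at (adjusted p = 0.0792) and -1.13 ± 0.27 on 1456004_x_at (adjusted p = 0.0145). Without the 3 low B6 arrays NOD differed from B6 on 1423510_at by -3.35 in WT mice (adjusted p = 7.85e-05) and by -2.91 in KO mice (adjusted p = 0.00381), and on 1437323_a_at by -0.38 in WT mice (adjusted p = 0.782).

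The log2 ratio of 1423510_at to 1437323_a_at, a pair chosen after the values were seen, showed the split without reference to other mice. It ran from -5.34 to -4.57 over the 6 NOD mice and from -3.11 to -1.40 over the 14 B6 and BALB mice, with no overlap, and WT and KO mice overlapped within each strain. A strain order of Iapp thus depends on the probe set, and no source used here says which part of the transcript each one reads. A sequence difference between the strains under these probes was not tested. The KO effect within NOD compares NOD mice with NOD mice on each probe set, and was -3.23, -2.76, -3.05 and -1.50 on 1423509_a_at, 1423510_at, 1437323_a_at and 1456004_x_at. On 1423510_at the NOD KO mice, at 21.6 to 37.4 units, lie far below the array medians, where remaining background would make this fall too small.

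**Figure D2:**
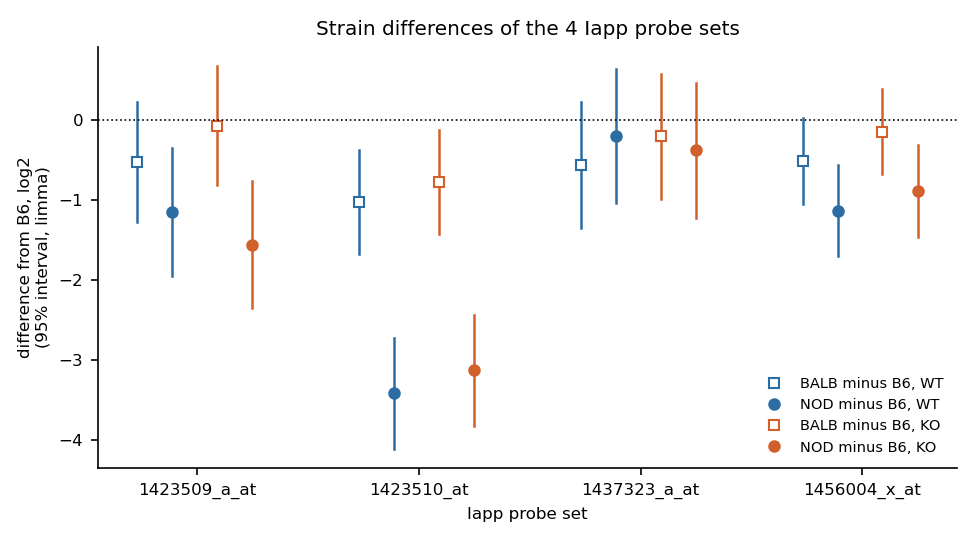
Differences of BALB and NOD mice from B6 mice on each of the 4 Iapp probe sets are plotted on the log2 scale, for WT (blue) and KO (orange) mice, with 95% intervals from limma. NOD lies at -3.41 (WT) and -3.13 (KO) on 1423510_at and at -0.20 and -0.38 on 1437323_a_at.

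Ppy and Pyy belong to one family of peptides, with neuropeptide Y, and are neighbours on chromosome 11. Pancreatic polypeptide fell in every strain. Ppy read 327, 288 and 453 in B6 WT mice against 34.0, 69.2 and 57.1 in KO mice. In BALB it read 388, 373, 389 and 264 against 39.4, 33.3, 37.3 and 31.6, and in NOD 191, 208 and 312 against 33.4, 53.3 and 37.7. The highest KO mouse of any strain read 69.2 and the lowest WT mouse 191. All KO values lie below the array medians, so the fold would be too small if background remains in them. The averaged log2 difference was -2.86 ± 0.14 (SE), 7.28-fold (limma, adjusted p = 1.01e-10), and the strain effects were -2.77, -3.31 and -2.51 in B6, BALB and NOD. They were not shown to differ (adjusted p = 1), and without the 3 low B6 arrays the B6 effect was -3.50 (adjusted p = 2.14e-05). WT means were 8.45 ± 0.34 in B6, 8.45 ± 0.27 in BALB and 7.86 ± 0.38 in NOD on the log2 scale (SD), and neither these (adjusted p = 0.184) nor the KO means (adjusted p = 0.248) separated the strains. With array weights both passed (adjusted p = 0.0127 and 0.00437), and the KO means also passed without B6 KO mouse 1 (adjusted p = 0.0346).

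Peptide YY, a satiety hormone of the lower gut, varied most among the WT mice. Pyy read 339, 831 and 591 in B6 WT mice, 971, 903, 578 and 399 in BALB, while those of NOD read 275, 362 and 457. KO mice read 90.9, 114 and 103 in B6, 102, 102, 98.0 and 79.8 in BALB, while those of NOD read 90.9, 93.2 and 84.0. WT mice of 1 strain thus differed by over 2-fold in B6 and BALB, while all 10 KO mice read from 79.8 to 114 units. These KO values lie around the array medians, where remaining background would narrow their spread and make the fold too small. The averaged log2 difference was -2.41 ± 0.17 (SE), 5.33-fold (limma, adjusted p = 7.59e-09), with -2.43 ± 0.31 in B6, -2.82 ± 0.27 in BALB and -2.0 ± 0.31 in NOD. The 3 low B6 arrays left out, the B6 effect was -2.30 (adjusted p = 0.00765). The strain effects were not shown to differ (adjusted p = 1), nor were the WT levels (adjusted p = 0.105), and the SD pooled within strains was 0.56 in WT and 0.15 in KO mice on the log2 scale. The WT levels did pass with the Gapdh ratio as a covariate (adjusted p = 0.00132), with array weights (adjusted p = 0.0167), and without B6 WT mouse 1 (adjusted p = 0.0331) or BALB WT mouse 4 (adjusted p = 0.0221).

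Proglucagon, the precursor of glucagon in alpha cells and of GLP-1 in gut L cells, was the hormone whose KO effect differed between strains. Gcg read 243, 354 and 268 in B6 WT mice and 89.6, 82.6 and 98.4 in B6 KO mice. In BALB WT mice it read 227, 237, 202 and 230, and in KO mice 54.2, 48.6, 56.8 and 129. In NOD WT mice it read 267, 256 and 267, and in KO mice 257, 361 and 221. KO mice of B6 and BALB lay below their WT mice without overlap, whereas NOD KO mice lay on both sides of theirs. The log2 difference was -1.66 ± 0.27 (SE) in B6 (limma, adjusted p = 0.000396), -1.75 ± 0.23 in BALB (adjusted p = 6.46e-05) and 0.05 ± 0.27 in NOD (95% interval -0.51 to 0.61; adjusted p = 0.972). That interval leaves out a fall of the size seen in B6 or BALB. Without the 3 low B6 arrays the B6 effect, of 1 KO against 2 WT mice, was -1.51 (adjusted p = 0.0682), and the averaged effect over all arrays was -1.12 ± 0.15 (adjusted p = 1.93e-05).

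The test of the strain differences themselves gave F = 15.5 for Gcg (limma, adjusted p = 0.0363), the only one of the 10 hormone probe sets past it, where 0.435% of all probe sets passed. Between pairs of strains the effect in NOD exceeded that in BALB by 1.81 ± 0.35 on the log2 scale (adjusted p = 0.0395; 0.222% of probe sets passed) and that in B6 by 1.71 ± 0.38 (adjusted p = 0.0929; 0.175% passed), while BALB and B6 differed by -0.09 ± 0.35. The call is close to the threshold. It passed with any 1 of 4 mice left out (B6 WT mice 1 and 2, BALB KO mouse 4, NOD KO mouse 3) and was lost with any 1 of the other 16. The adjusted p then ran from 0.00047 without BALB KO mouse 4 to 0.149 without NOD KO mouse 2, and was 0.129 without the 3 low B6 arrays. With mice paired by number within strains the adjusted p of this F test was 0.0079. It was 0.026 with only BALB and NOD mice paired, the strains where the numbers behaved as pairs. Without NOD KO mouse 2 the NOD effect was -0.15.

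The strains were alike in Gcg among WT mice and apart among KO mice. WT means were 8.15 ± 0.28 in B6, 7.81 ± 0.10 in BALB and 8.04 ± 0.03 in NOD on the log2 scale (SD; F test, limma, adjusted p = 0.604). KO means were 6.49 ± 0.13, 6.05 ± 0.65 and 8.09 ± 0.36, and these differed (adjusted p = 4.43e-05; 17.9% of probe sets passed). NOD KO mice exceeded B6 KO mice by 1.60 ± 0.27 (adjusted p = 0.000673) and BALB KO mice by 2.04 ± 0.25 (adjusted p = 2.7e-05; 8.79% of probe sets passed), and the 3 of them read above all 7 others. B6 and BALB KO mice were not separated (adjusted p = 0.262). This KO strain difference passed with each of the 20 mice left out in turn, and without the 3 low B6 arrays NOD exceeded the remaining B6 KO mouse by 1.61 (adjusted p = 0.0435). Within runs of sample codes, Gcg was lower in KO mice in all 3 sets of B6 or BALB mice, by -2.18 to -1.33, and read -0.06 and 0.11 in the 2 NOD sets.

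Gcg in NOD was set among the probe sets, itself included, that fell at least 2-fold and passed in both B6 and BALB. This comparison was chosen after its values were seen. There were 665 of these, 524 of which also passed as lower in NOD. In 8 the NOD difference was above 0, and the named genes among these were Cnmd, Fabp6, Gcg, Hsd17b2, Npl, Sgpp2 and Tspan8. Since the comparison was built on Gcg, its place among the 8 was fixed in advance and tests nothing. Without NOD KO mouse 2 its NOD difference was -0.15, below that cut. The choice of the 665 used B6 and BALB only, but the fit pools the spread over all strains.

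**Figure D3:**
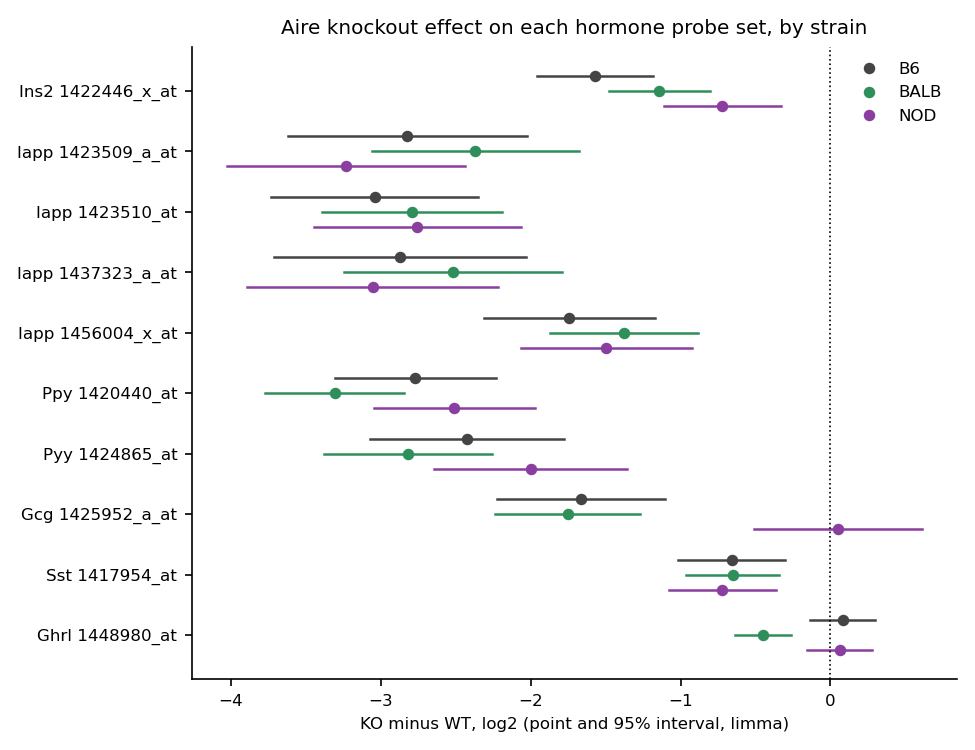
The KO minus WT difference of each hormone probe set is plotted on the log2 scale for B6, BALB and NOD, with 95% intervals from limma (20 arrays, 3 or 4 mice per group). All points lie left of 0 except Gcg in NOD (0.05) and Ghrl in B6 (0.08) and NOD (0.06).

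Somatostatin, which restrains the release of insulin and glucagon, showed a small fall of the same size in each strain. Sst read 85.6, 79.5 and 85.0 in B6 WT mice and 60.3, 56.7 and 42.9 in KO mice. In BALB it read 87.5, 86.2, 89.2 and 63.3 in WT and 54.7, 57.9, 45.9 and 47.9 in KO mice, and in NOD 84.6, 115 and 103 in WT and 51.1, 75.4 and 58.1 in KO mice. These values lie around or below the array medians, where remaining background would make a fold too small. The genotypes did not overlap within any strain. The averaged log2 difference was -0.68 ± 0.09 (SE), 1.60-fold (limma, adjusted p = 3.78e-05), with -0.66 in B6 (adjusted p = 0.0195), -0.65 in BALB (adjusted p = 0.00967) and -0.72 in NOD (adjusted p = 0.018). Neither the strain effects (adjusted p = 1) nor the WT levels (adjusted p = 0.385) or KO levels (adjusted p = 0.49; 0.0137 with array weights) were shown to differ. The B6 call was lost without B6 WT mouse 1 or 3 or KO mouse 3 (adjusted p from 0.0645 to 0.132) and without the 3 low arrays (-0.50 with 1 KO against 2 WT mice; adjusted p = 0.449). The NOD call was lost without any 1 of NOD WT mice 2 and 3 and KO mice 1 and 3 (adjusted p from 0.0664 to 0.119).

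Ghrelin, the hunger hormone of the stomach, was the member without an averaged change. Ghrl read 40.5, 35.2 and 38.4 in B6 WT mice and 38.7, 38.9 and 43.0 in KO mice. In BALB it read 33.5, 37.8, 38.2 and 32.9 in WT and 26.0, 24.3, 27.1 and 27 in KO mice, and in NOD 33.3, 30.9 and 34.7 in WT and 36.3, 37.3 and 30.1 in KO mice. BALB KO mice stood below all other mice, and the groups overlapped in B6 and NOD. The averaged difference was -0.10 ± 0.06 on the log2 scale (95% interval -0.22 to 0.02; limma, adjusted p = 0.218). In BALB it was -0.45 ± 0.09 (adjusted p = 0.00358), against 0.08 ± 0.10 in B6 and 0.06 ± 0.10 in NOD, and the strain effects were not shown to differ (adjusted p = 0.139). KO levels differed between strains (adjusted p = 0.000502), with BALB below B6 by -0.63 ± 0.10 (adjusted p = 0.000369; 12.2% of probe sets passed). Without the 3 low B6 arrays that difference was -0.57 (adjusted p = 0.0703) and the B6 effect -0.03 (adjusted p = 0.969). All values lie below the array medians, and without detection calls Ghrl cannot be told from background. Over the 10 hormone probe sets, 3 differed between strains among WT mice (Ins2 and, of Iapp, 1423510_at and 1456004_x_at) and 5 among KO mice (Gcg, Ghrl and, of Iapp, 1423509_a_at, 1423510_at and 1456004_x_at), where 11.3% and 17.9% of all probe sets passed. The same 3 and 5 passed without the 3 low B6 arrays, the weakest being 1456004_x_at among KO mice (adjusted p = 0.0499). The call of 1423509_a_at was lost without NOD KO mouse 3 (adjusted p = 0.0689), and that of 1456004_x_at held in 15 of the 20 fits with 1 mouse left out among WT mice and in 7 of 20 among KO mice.

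Individual mice of 1 group differed more in some hormones than in others. The SD of log2 intensity, pooled within strains, ran among WT mice from 0.10 for Ghrl and 0.16 for Gcg to 0.56 for Pyy, and among KO mice from 0.11 for Ghrl and 0.15 for Pyy to 0.70 for Iapp on 1437323_a_at. The medians over all probe sets were 0.20 and 0.18. The 4 Iapp probe sets were wider in KO (0.44 to 0.70) than in WT mice (0.25 to 0.31), as was Gcg (0.47 against 0.16), whereas Pyy was narrower. These spreads were not tested. Deviations of the mice from their group means were compared between hormones in 21 pairs of genes and both genotypes, 42 relations over 10 mice each, with an exact permutation of mice within strains (two-sided). None passed after Benjamini-Hochberg adjustment (smallest adjusted p = 0.575 by r and 0.689 by rho). Each exact test has only 864 arrangements, so over 42 relations a lone one could pass only at or near the most extreme. The lack of calls therefore does not show that the hormones vary independently. The median r was 0.07 in WT mice (-0.69 to 0.61) and 0.06 in KO mice (-0.64 to 0.70). At an unadjusted p under 0.05 there was 1 relation by r, Ppy with Pyy in KO mice (r = 0.68, exact p = 0.037; rho = 0.73, exact p = 0.0382), and its r was 0.44 without the 2 mice farthest from the median. By rho there was also Gcg with Ghrl in KO mice (rho = 0.67, exact p = 0.0324; r = 0.55, exact p = 0.0903), whose r was 0.61 without those 2 mice.

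Of 10 measured peptides in the list of other gut endocrine hormones 6 fell and 0 rose (limma, averaged contrast), with a median log2 difference of -0.69. The list is a loose one. Vip, Npy (-0.96) and Cartpt (-0.43), which were among the falls, are known chiefly from neurons, and Ucn3 from islets. Over all genes, each taken by its brightest probe set, 16.6% fell, 9.70% rose and the median was 0.01. The largest falls were those of neurotensin, Nts (-4.94 ± 0.13, SE), the incretin Gip (-2.85 ± 0.14) and the vasoactive peptide Vip (-2.61 ± 0.14). Gastrin, Gast (-0.07), secretin, Sct (-0.19), Insl5 (0.17) and Ucn3 (-0.12) did not pass.

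Of the genes that process and store these hormones, most did not pass. In the prohormone processing and granule list 4 of 13 measured members fell and 1 rose, with a median of -0.30. Over all genes 16.6% fell and 9.70% rose, so the single rises in the lists of this paragraph are not read as a result. The granins Chgb (-2.27 ± 0.19), Scg2 (-1.41 ± 0.12) and Scg3 (-0.35 ± 0.08), proteins of the secretory granule, fell, and Ptprn2, a granule membrane protein, rose by 0.54. The prohormone convertase Pcsk1 (0.18; adjusted p = 0.224), the carboxypeptidase Cpe (-0.43; adjusted p = 0.0623) and chromogranin A, Chga (0.19; adjusted p = 0.0672), did not pass. For Chga that average joins opposite strain differences, -0.81 in B6 against 0.90 in BALB and 0.47 in NOD, so it does not show an unchanged gene. Of 11 measured islet and enteroendocrine transcription factors 5 fell and 1 rose, median -0.21. Neurog3, which starts the endocrine lineage (-0.88 ± 0.12), Isl1 (-0.71 ± 0.11) and Hhex, a factor of delta cells (-0.53 ± 0.18), led the falls. The Hhex average (limma, adjusted p = 0.0437) joins -0.97 in B6 and -0.72 in NOD with 0.10 in BALB. Pax6 rose by 0.18, and the beta cell factors Pdx1 (0.05) and Nkx6-1 (0.08) did not pass. In the beta cell glucose sensing list 2 of 5 fell, the glucose transporter Slc2a2 (-0.86 ± 0.10) and the zinc transporter Slc30a8 (-0.30 ± 0.08). The channel subunit Abcc8 rose by 0.40, and the median was -0.03. Slc30a8, at a mean log2 of 4.56 in WT and 4.26 in KO mice, lies far below the array medians and cannot be told from background.

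Receptors of the hormones gave a median of 0.06, with 4 of 17 lower and 2 higher (16.6% and 9.70% over all genes). Calcr, the core of the amylin receptor and the receptor of calcitonin, fell by 3.56 ± 0.18 on the log2 scale (limma, adjusted p = 1.78e-10), in B6, BALB and NOD by -3.83, -3.29 and -3.57. Its partners Ramp2 (-0.36) and Ramp3 (0.53) went in opposite directions, and the insulin receptor Insr rose by 0.56. The Pyy receptor Npy2r passed as lower by 0.27. Its mean log2 of 3.55 in WT and 3.30 in KO mice lies far below the array medians, so Npy2r cannot be told from background. None of the 5 somatostatin receptors nor the ghrelin receptor Ghsr (0.01) passed. Markers of neuroendocrine cells included 4 falls in 7 measured genes, 3 of them the granins above and the other Neurod1 (-0.52), and 0 rises, while Syp (0.23; adjusted p = 0.0518) and Insm1 (0.23; adjusted p = 0.0886) did not pass. The summed level of the list overlapped between the genotypes in each strain, at 6866 to 8978 units in B6 WT and 7570 to 8643 in KO mice, 5994 to 8302 and 6630 to 9358 in BALB, and 8238 to 9637 and 9230 to 10732 in NOD, and no member was at 0. Insm1, the brightest member at a mean of 12.6 in WT and 12.9 in KO mice on the log2 scale, makes up most of that sum. The mean log2 level of the list did not overlap, at 8.08 to 8.39 in WT and 7.23 to 7.39 in KO mice of B6, 8.08 to 8.24 and 7.72 to 7.88 in BALB, and 7.97 to 8.12 and 7.56 to 7.75 in NOD. The part of such cells in the hormone falls was not tested.

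**Figure D4:**
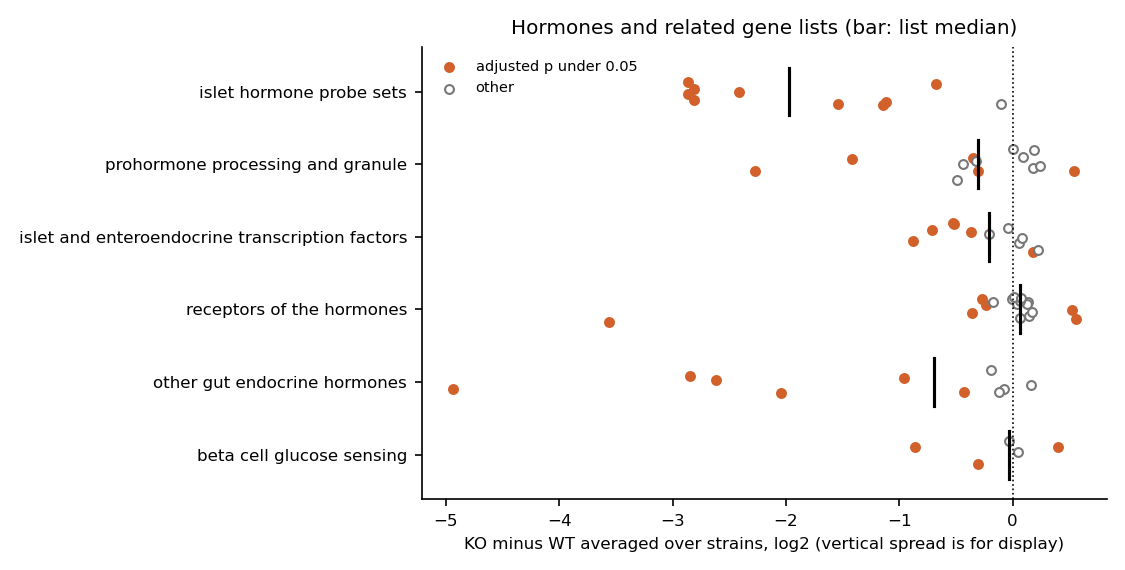
Each point is 1 hormone probe set (top line) or 1 gene of a related list, placed at its KO minus WT difference averaged over strains (log2), filled where the adjusted p was under 0.05, with a bar at the list median. The hormones have a median of -1.98, other gut endocrine hormones -0.69, and the remaining lists between -0.30 and 0.06. The line of other gut endocrine hormones also holds neuropeptides. The hormone median counts Iapp on 4 probe sets, whereas a list takes 1 probe set a gene, so these medians are not of the same make. Of the hormones with 1 probe set, Ppy (-2.86) and Pyy (-2.41) lie left of -1.98. Ins2 (-1.15), Gcg (-1.12), Sst (-0.68) and Ghrl (-0.10) lie right of it.

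Genes beside the hormones on the chromosome, the nearest measured pair on each side in the RefSeq order, did not move as one. Around Ins2, the growth factor Igf2 (-1.20), tyrosine hydroxylase, Th (-1.69), and Ascl2 (-0.66) fell, and Igf2os did not pass. Around Iapp, the organic anion transporters Slco1a5 (-0.90) and Slco1a6 (-0.41) fell, and Pyroxd1 and Recql did not pass. The adjoining pair Ppy and Pyy lay between Mpp2, which rose by 0.22, and Nags, which did not pass, and beyond these Cd300lg and Tmem101 did not pass. Around Gcg, the protease Fap (-1.06) and the RNA sensor Ifih1 (-0.78) fell, Slc4a10 rose by 0.58 and Dpp4, the protease that cleaves GLP-1, did not pass. Around Sst, Rtp4 (-1.67) fell, Lppos rose by 0.25, and Masp1 and Bcl6 did not pass. Around Ghrl, which itself did not pass, Atp2b2 (-0.80) fell, Irak2 rose by 0.35, and Tatdn2 and Sec13 did not pass. Of these 24 neighbours 9 were lower and 4 higher, where 16.6% and 9.70% of all genes were.

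Among 5097 named probe sets that varied over the 20 arrays (SD of log2 at least 0.5), the likest pattern to each hormone was described by Pearson's r over all 20 arrays. WT and KO mice form separate clusters on most of these probe sets, so r describes that gap as well as the mice within it. Ins2 was most like Dppa5a (0.96), Klk1b5 (0.95) and Bpifa5 (0.95). Iapp was most like Zg16 (0.96), Mmrn1 (0.96) and Sftpc (0.95), and Ppy most like Pomc (0.97), Camp (0.97) and Pla2g1b (0.97). For Pyy the likest were Ldhc (0.98), Fgb (0.98) and Slpi (0.97), and for Sst Cd207 (0.93), Slc6a13 (0.91) and Pcp4 (0.91). Gcg had less close matches in Aldh1a2 (0.89), Fhl1 (0.88) and Pglyrp1 (0.88), and Ghrl less still in Tph1 (0.79), Adcyap1 (0.75) and Chil3 (0.74).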

How the data were processed

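The deposited values are intensities on a linear scale, 1 for each probe set of an array. Per the submitters' processing notes, the authors made these intensities with RMA; its version and settings were stated in none of the sources. Per the labels' protocols, Trizol RNA went through 2 rounds of amplification before the biotin label, which can favour the 3' ends of transcripts. RMA values carry no detection calls, so absence of a transcript cannot be stated.

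Groups came from the sample titles. Of 45101 probe sets, 64 controls were left out. The values of the other 45037 were taken as log2, and a model of 6 group means over the 20 arrays was fitted in R 4.3.3 with lmFit and eBayes of limma 3.58.1, which left 14 residual degrees of freedom. Contrasts were KO minus WT averaged over and within strains and strain differences within a genotype, with F tests over the strain differences. Benjamini-Hochberg adjustment covered every probe set tested, and 0.05 was the threshold for "passed". The code was tested on simulated data. The number of mice limits the precision.

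Other probe sets were named by the platform annotation, 34945 with exactly 1 symbol. Named genes are all members, up to 3 falls and 2 rises per list, the 3 likest genes and 2 measured neighbours on each side of each member. List members named beyond these, among them Gast, Sct, Insl5, Ucn3, Pcsk1, Cpe, Chga, Pdx1, Nkx6-1, Ghsr, Syp, Insm1 and Neurod1, were chosen after their values were seen. The members, the lists and the tests were chosen with earlier results of these data known.

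Whether mice of the same number deviate together from their group means was checked. The correlations were 0.46 to 0.66 in BALB and 0.31 to 0.67 in NOD, all above the limit of 0.1, so the numbers count as pairs there. The B6 values of 0.78, 0.72 and -0.13 did not meet the limit. Every value reported comes from the fit without pairs unless it is said to be paired, and the paired fits are alternatives. Alternatives covered scaling, dim probe sets, variance models, a pseudocount of 16, array weights, blocks, covariates, the arrays fitted and each mouse left out. The 3 B6 arrays left out, the marker covariate and the pairing of BALB and NOD only were chosen after seeing the data.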

Additional observations from a re-analysis of the deposited data

Results flagged for a closer look

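The effect of the KO label on Gcg differed between strains (F test, limma, Benjamini-Hochberg adjusted p = 0.0363): the hormone fell in 7 of 7 B6 and BALB KO mice, which all read below the WT mice of their strain, and its difference in NOD was 0.05 on the log2 scale. The call was lost in 16 of the 20 fits with 1 mouse left out, with adjusted p up to 0.149.

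In the groups of 4 mice, all BALB, 5 of 20 sets of values held 1 mouse far from the other 3. The rule flags about 1 in 20 independent sets. These sets share the same BALB mice, and Iapp enters on 4 probe sets, so the count cannot be set against that share. All 5 were from mice numbered 4. These 2 mice also had the highest log2 ratio of 3' to 5' Gapdh in BALB, 3.04 in WT mouse 4 and 2.93 in KO mouse 4, whose part in these values was not tested. BALB KO mouse 4 read 129.2 units for Gcg, against 48.6 to 56.8 in the other KO mice, and 261.5 for Iapp on probe set 1456004_x_at, against 132.1 to 148.4. BALB WT mouse 4 read 6858.5 for Iapp on 1437323_a_at, against 4043.1 to 4270.2, and it was low for Ppy, with 264.0 against 373.2 to 389.1, and for Sst, with 63.3 against 86.2 to 89.2. Without BALB KO mouse 4 the adjusted p of the Gcg strain difference was 0.00047.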

How the results depend on the processing

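The members' falls were the stable part. The count of hormone probe sets past the threshold in the averaged contrast was 9 without any 1 mouse, 8 to 9 in B6, 10 in BALB and 6 to 8 in NOD. Over all other alternatives, 574 member effects kept direction and side of the threshold, 7 no longer passed and 1 reversed: Ghrl in B6 read -0.027 without the 3 B6 arrays of low Gapdh ratio. Among the fits with 1 mouse left out 788 did so, 11 no longer passed and 1 reversed, Gcg in NOD, which ran from -0.15 without NOD KO mouse 2 to 0.21 without NOD KO mouse 3. Leaving out dim probe sets removed Sst and Ghrl. The strain tests were less stable. The count for strain differences of the KO effect was 2 with array weights (Gcg, and Ghrl at adjusted p = 0.0246), 0 with B6 KO mice 2 and 3 counted as 1 sample (Gcg adjusted p = 0.0682), 0 without the 3 B6 arrays and 0 to 1 without 1 mouse. For strain differences among WT mice it was 5 with array weights, 1 with the sample code run as a block and 2 to 4 without 1 mouse, and among KO mice 3 to 5. The causes were not tested.

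With mice paired by number within strains (replicate block) the member counts were 9, 9, 10 and 8 for the average, B6, BALB and NOD and 1 for the strain differences of the effect, and this block changed no member's call. It could not be fitted for strain differences within a genotype, since pairs lie within strains. Over all probe sets the block gave 16664, 9695, 7787 and 5112 calls for the average, B6, BALB and NOD and 1284 for the strain differences, against 9277, 3880, 3079, 1903 and 196 without it. With BALB and NOD alone paired, the counts were 4647 in BALB, 2974 in NOD and 370 for the strain differences. Array weights gave 16715 for the average, 12733 in B6, 6795 in NOD, 1702 for the strain differences of the effect, 8237 among WT and 25867 among KO mice, where the last pair were 5102 and 8065. The run block gave 4911, 3090, 381, 2873 and 4428 for BALB, NOD, the effect's strain differences, WT and KO. Without dim probe sets, which leaves fewer to test, the counts were 5455, 2531, 1816 and 1248, and 100 for the strain differences. The Gapdh covariate gave 8570 among WT mice. Merging B6 KO mice 2 and 3 gave 2524 in B6, 108 for the strain differences and 4792 among KO mice, leaving out the 3 B6 arrays 1245, 93 and 3795, and fitting B6 alone 2517.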
